A study of Homo sapiens with 16 samples.

Results

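The 33 genes described here act in homologous recombination and in the Fanconi anemia pathway, the linked systems that repair double-strand breaks and crosslinks between the DNA strands. They were taken from a list of gene symbols and matched to the Ensembl identifiers of the deposited tables. All 33 were found among the 60676 identifiers, and all 33 passed the filter on low counts, with 73 counts as the smallest value (RAD54L) in any library. In homologous recombination, a broken end is resected to single-stranded DNA, BRCA2 and its partners act on that strand, and the strand invades and copies from the sister chromatid. In the Fanconi pathway, a core complex with the ubiquitin ligase FANCL and the conjugating enzyme UBE2T marks the FANCD2-FANCI pair with ubiquitin at a stalled fork, and nucleases then unhook the crosslink. Both systems work in and after DNA replication, and many of these genes are transcribed mostly in dividing cells.

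The study set the human melanoma cell line A101D, labelled as methionine dependent, beside MeWo, a melanoma line described as methionine independent because homocysteine can replace methionine in its medium. Total RNA of 8 libraries per line was sequenced. The cells were grown in a medium without methionine and cystine, with cystine added back and with dialyzed serum. Control medium then received 200 µM methionine, and the methionine-free medium received 200 µM homocysteine. The labels give each library a line and a replicate number from 1 to 8, and no label says which medium a replicate had. Values are therefore given per line for replicates 1 to 4 and replicates 5 to 8, as sets of replicate numbers and not as media. Methionine dependence and independence are each represented by 1 line, so they cannot be told apart from other differences between the lines. The labels do not say whether replicates were separate cultures, and p-values measure only the spread between these libraries.

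Libraries held 28910881 to 38961862 counts. Levels are given in CPM, the count of a gene scaled to the effective size of its library. Melanocyte markers summed to between 2529 and 3442 CPM (A101D) and between 10236 and 11439 CPM (MeWo), but not all 8 were high in A101D. There TYRP1 had 0.249 to 0.654 CPM in replicates 1 to 4 and 1.08 to 1.76 CPM in replicates 5 to 8 and TYR at most 1.76 CPM, while DCT and S100B were at a higher level than in MeWo. T cell markers summed to at most 0.176 CPM, and the leukocyte marker PTPRC reached at most 0.278 CPM. The 4 fibroblast markers summed to 2.97 to 5.29 CPM (A101D) and to 75.2 to 85.0 CPM (MeWo), most of it LUM in MeWo. The sum thus moved with the line difference. LUM, DCN and COL1A1 (at most 2.60 CPM) were higher in MeWo. PDGFRA went the other way, with 1.09 to 2.09 CPM (A101D) and at most 0.256 CPM (MeWo). The 3 endothelial markers, most of all VWF, had sums of 3.74 to 4.77 CPM in replicates 1 to 4 of A101D, and of 15.3 to 19.9 CPM in its replicates 5 to 8. The part of the marker genes in the results below was not tested. MeWo replicate 2 had a count in 34471 genes, against 30066 to 31433 in the other MeWo libraries, and the count of members over all libraries is given with and without it.

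Most members were expressed at a higher level in MeWo than in A101D. Over all libraries, 23 of the 33 genes were higher in MeWo, 1 was lower (FANCC) and 9 did not pass an adjusted p of 0.05 in limma, where 79.0% of all genes tested passed, 38.5% higher and 40.5% lower. That fit had the line as its only term, so the spread behind its p-values also holds the difference between the sets of replicates. The median log2 fold change, MeWo minus A101D, was 1.04 over the members and -0.022 over all genes. Without MeWo replicate 2, 22 members were higher and 1 was lower. The lines did not overlap for 19 members, with MeWo above in 18 of them (26.6% of all genes) and below in 1 (31.1% of all genes).

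The line difference was not the same in both sets of replicates. Within replicates 1 to 4, 24 members were higher in MeWo and 7 were lower (XRCC2, FANCC, EXO1, FANCL, RAD51AP1, RMI1 and XRCC3), with a median of 0.41. In the same fit 79.4% of all genes passed, 37.0% higher and 42.4% lower. The lines did not overlap for 23 members with MeWo above (33.8% of all genes) and 6 with MeWo below (39.2%). Within replicates 5 to 8, 29 members were higher and 4 were lower (FANCC, RAD50, FANCF and SLX4), with a median of 1.40, where 84.2% of all genes passed, 39.7% higher and 44.5% lower. Here 28 members had MeWo above with no overlap (36.8% of all genes) and 3 had MeWo below (42.4%). Without MeWo replicate 8 the number lower within replicates 5 to 8 was 2, since FANCF (adjusted p = 0.0599, over all settings 0.000456 to 0.0599) and SLX4 (adjusted p = 0.348, over all settings 0.00489 to 0.348) no longer passed. Both sets gave a higher level in MeWo for 22 members, where 30.8% of all genes did so, and 1 member was lower in both (35.7% of all genes).

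For 8 members the lines were called in opposite directions in the sets, where 5.35% of all genes were. XRCC2, EXO1, FANCL, RAD51AP1, RMI1 and XRCC3 were lower in MeWo within replicates 1 to 4 and higher within replicates 5 to 8 (2.78% of all genes). FANCF and SLX4 went the other way (2.56% of all genes). The difference between both line differences was not itself tested. In MeWo these 8 genes differed between the sets by -0.17 (XRCC2) to 0.25 (FANCF) in mean log2 CPM. In A101D the same difference ran from -2.42 (RAD51AP1) to 1.72 (FANCF), and the smallest in size was 0.60 (SLX4).

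**Figure D1:**
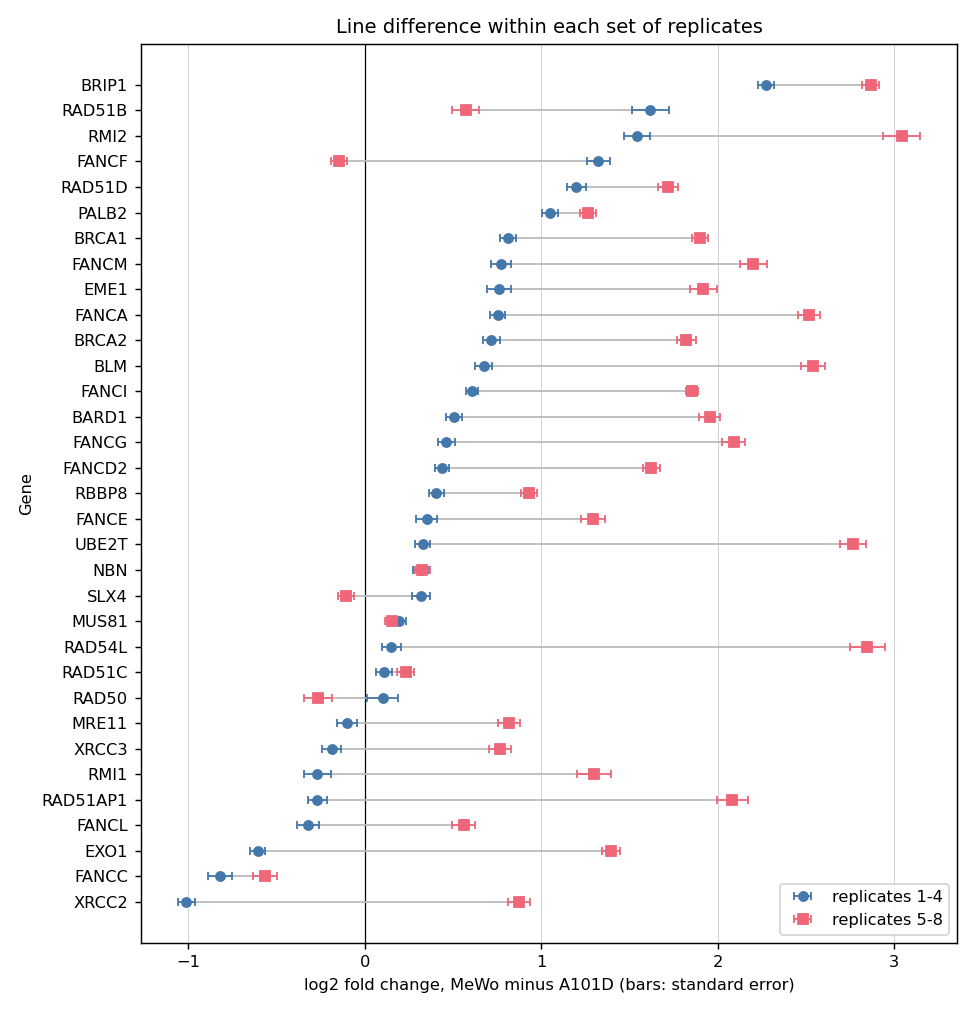
Log2 fold change of each member, MeWo minus A101D, within replicates 1 to 4 (circles) and within replicates 5 to 8 (squares), with standard errors as bars and a grey line joining the values of 1 gene. BRIP1 is at the right in both sets, while XRCC2 lies at -1.01 in the first set and at 0.87 in the second.

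Within A101D, replicates 5 to 8 had lower levels of most members than replicates 1 to 4. All 4 libraries of replicates 5 to 8 lay below all 4 of replicates 1 to 4 for 27 of the 33 members, where 28.7% of all genes did so. For 16 members the difference was over 2-fold, against 5.31% of all genes, and for 5 members it was over 4-fold, against 0.760% of all genes. Replicates 5 to 8 lay above for 4 members (FANCF, RAD51B, SLX4 and RAD50), where 31.0% of all genes did so, and over 2-fold above for FANCF and RAD51B, where 9.01% of all genes did so. The ranges overlapped for MUS81 and NBN. The median difference over members was -0.96 in mean log2 CPM, and 0.025 over all genes. No label gives a difference between these sets, so they are described and not tested.

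Within MeWo the sets were close. Replicates 5 to 8 lay below replicates 1 to 4 for 4 members (UBE2T, XRCC2, BARD1 and FANCI), where 8.75% of all genes did so, and above for 5 (EME1, FANCF, RAD51B, RMI1 and BRCA2), where 7.97% of all genes did so. The other 24 overlapped, and no member was over 2-fold apart (0.250% of all genes were below by that much and 0.130% above). In both lines together, 4 members were below in replicates 5 to 8 (5.52% of all genes) and 2 were above (4.59%). With total counts only, 1 member lay below in MeWo. The largest absolute difference was 0.33, for EME1, and the median was -0.015, which became 0.020 when libraries were scaled by total counts only. All 33 members had a larger absolute difference in A101D than in MeWo. Summed over the members, A101D had 968 to 1035 CPM in replicates 1 to 4 and 576 to 587 CPM in replicates 5 to 8, and MeWo had 1353 to 1392 CPM.

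**Figure D2:**
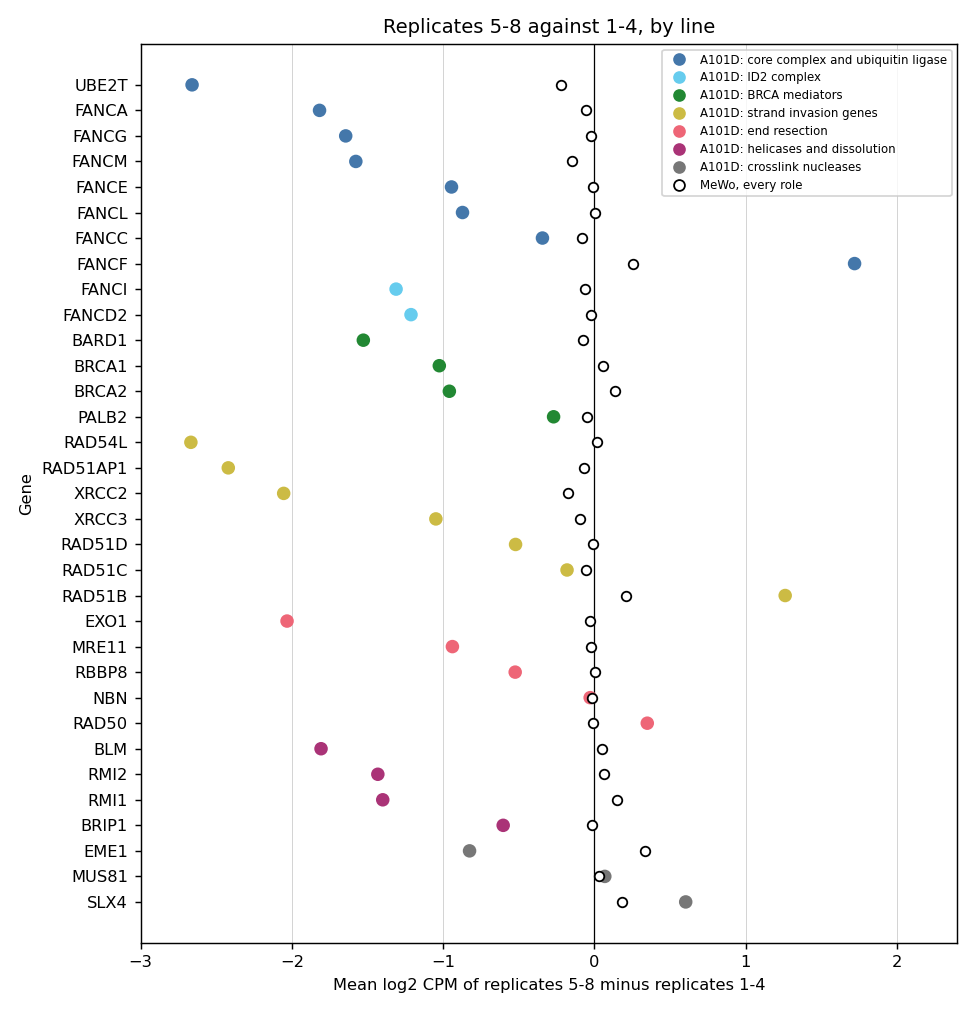
Difference in mean log2 CPM between replicates 5 to 8 and replicates 1 to 4 for each member, in A101D (filled, coloured by role) and in MeWo (open). A101D spreads from -2.67 (RAD54L) to 1.72 (FANCF), and the MeWo values lie between -0.22 (UBE2T) and 0.33 (EME1).

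Genes of the cell cycle differed in the same libraries. All 24 genes of a cell cycle list, among them MKI67, PCNA, the MCM helicase subunits and the cyclins A2, B1 and E2, were lower in A101D replicates 5 to 8 than in replicates 1 to 4, 23 of them by over 2-fold, with a median difference of -2.16, where 28.7% of all genes were lower and 5.31% by over 2-fold. Their summed level was 2466 to 2585 CPM in A101D replicates 1 to 4, 599 to 635 CPM in A101D replicates 5 to 8, 3744 to 3883 CPM in MeWo replicates 1 to 4 and 3542 to 3679 CPM in MeWo replicates 5 to 8. The largest difference was that of E2F2, a transcription factor of the G1 to S transition, with 20.8, 19.6, 21.0 and 20.4 CPM in A101D replicates 1 to 4 and 0.773, 0.769, 0.322 and 0.582 CPM in replicates 5 to 8. CCNE2, cyclin E2, and RRM2, the small subunit of ribonucleotide reductase, followed at -3.64 and -3.58. Among the members, 3 (RAD54L, UBE2T and RAD51AP1) had a larger drop than the cell cycle median. In these bulk libraries fewer dividing cells and less RNA of these genes per cell cannot be told apart, and the part of the cell cycle in the members' levels was not tested.

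**Figure D3:**
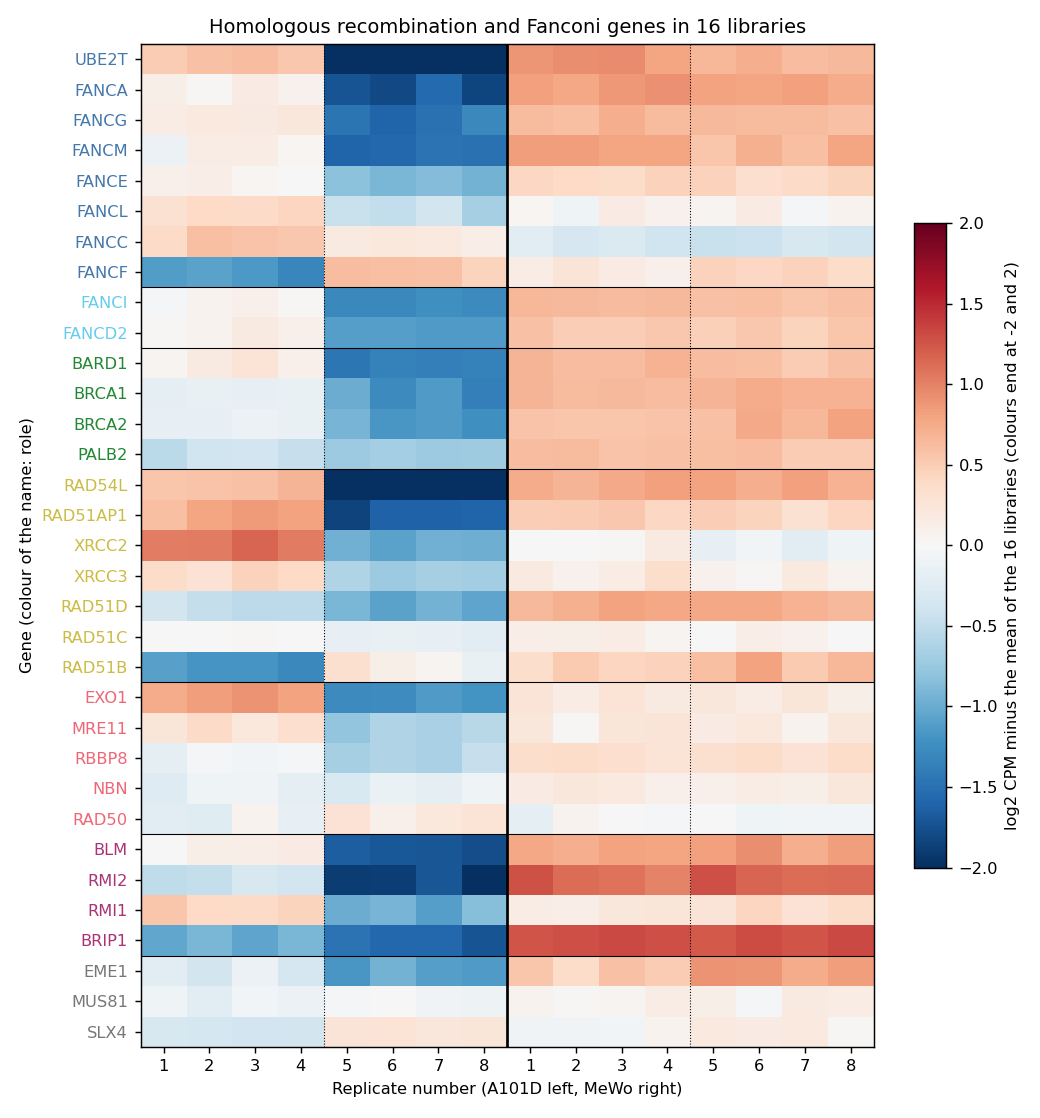
Log2 CPM of each member in each of the 16 libraries, minus the mean of that gene over all libraries, with members grouped by role (colour of the name) and lines split by the heavy vertical line. The blue block of A101D replicates 5 to 8 covers most rows, and FANCF and RAD51B are low in A101D replicates 1 to 4 instead.

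Promoter sequences are shown for 6 members, chosen after their values were seen, from those over 2-fold apart between the A101D sets. RefSeq windows (GRCh38.p14) of 250 bases before to 50 bases after the start were held for 30 of the 33 members. For 28 of these, window sequence was found in GENCODE transcripts on the strand of the gene. The windows of BRCA1 and RMI1 had no such match and lie outside the gene positions used here, so their place is uncertain. Those of RAD51B and FANCC, among others, lie inside the gene. The stretches printed run from 120 bases before the start to base 30 from the start, 5′ to 3′ on the strand of the gene. RAD54L, UBE2T, XRCC2, EXO1 and FANCD2 had lower levels in A101D replicates 5 to 8, and FANCF had a higher one. Capitals mark matches to the words searched. These were an E2F word (GCGGGAAA, GCGCGAAA, GCGCCAAA or GCGGCAAA), the CCAAT word, and the word TTTGAA or TTCGAA of the cell cycle homology region, each on both strands.
RAD54L (chr1:46247568-46247717, plus strand): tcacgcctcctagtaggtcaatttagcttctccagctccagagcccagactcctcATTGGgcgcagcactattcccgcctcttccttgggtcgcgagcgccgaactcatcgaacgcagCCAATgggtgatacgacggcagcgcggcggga
UBE2T (chr1:202341907-202342056, minus strand): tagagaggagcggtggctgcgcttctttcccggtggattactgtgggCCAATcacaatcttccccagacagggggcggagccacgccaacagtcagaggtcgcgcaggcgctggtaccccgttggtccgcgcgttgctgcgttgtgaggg
XRCC2 (chr7:152676112-152676261, minus strand): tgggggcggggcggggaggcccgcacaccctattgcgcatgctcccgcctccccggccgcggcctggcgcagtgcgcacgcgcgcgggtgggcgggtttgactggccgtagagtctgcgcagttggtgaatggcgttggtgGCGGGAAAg
EXO1 (chr1:241848084-241848233, plus strand): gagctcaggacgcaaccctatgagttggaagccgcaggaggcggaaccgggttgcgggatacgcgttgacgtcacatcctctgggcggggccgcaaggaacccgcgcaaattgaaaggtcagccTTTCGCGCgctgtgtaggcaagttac
FANCD2 (chr3:10026317-10026466, plus strand): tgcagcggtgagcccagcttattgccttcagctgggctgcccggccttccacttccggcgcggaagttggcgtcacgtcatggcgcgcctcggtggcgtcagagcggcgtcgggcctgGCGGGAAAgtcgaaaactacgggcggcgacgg
FANCF (chr11:22625794-22625943, minus strand): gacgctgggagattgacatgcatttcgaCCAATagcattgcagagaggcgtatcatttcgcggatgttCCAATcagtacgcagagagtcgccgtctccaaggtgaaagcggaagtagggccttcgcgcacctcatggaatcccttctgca

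In the full windows an E2F word was found in 5 of 30 member promoters (FANCA, FANCC, FANCD2, EXO1 and XRCC2), or 16.7%, against 3.3% of the 27305 promoters in the table. It lay at bases 22 to 29 from the start in XRCC2, at bases 5 to 12 in EXO1 and from base -2 to base 6 in FANCD2, counting the first transcribed base as 1 and the base before it as -1. CCAAT was found in 13 member promoters (43.3%, against 35.7% of all), at a pair of places in each of RAD54L, UBE2T and FANCF, of which the one at bases -124 to -120 of UBE2T begins before the printed stretch. The cell cycle homology word was in 3 of the 30, against 16.6% of all. These counts and the medians below include the unmatched windows of BRCA1, which held none of the words, and of RMI1, which held CCAAT. The median difference between the A101D sets was -1.82 for the 5 members with an E2F word and -0.94 for the 25 without. For CCAAT it was -1.40 with a match and -0.87 without. Single members departed from this. RAD54L, with the largest difference in A101D, had no E2F word in its window, and FANCC, with a small one, had a match. A link between these words and the levels was not tested. A match is a description of letters and not of a bound site.

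The ubiquitin ligase arm of the Fanconi pathway had 8 members, of which 7 lay below in A101D replicates 5 to 8 and 1 (FANCF) above. Of all genes, 28.7% lay below and 31.0% above. UBE2T (ENSG00000077152, chr1:202331657-202341980), the ubiquitin-conjugating enzyme, had 32.6, 34.6, 35.2 and 33.2 CPM in A101D replicates 1 to 4 and 5.01, 5.49, 5.36 and 5.40 CPM in replicates 5 to 8. Its sets were 6.32-fold apart and did not overlap. In MeWo it had 42.2, 43.8, 44.2 and 39.7 CPM in replicates 1 to 4 and 36.4, 38.1, 35.1 and 35.8 CPM in replicates 5 to 8, so that the second set was lower there as well, by a much smaller margin. The line difference was 0.33 ± 0.044 (SE, adjusted p = 1.39e-08) within replicates 1 to 4 and 2.77 ± 0.073 (SE, adjusted p = 3.21e-30) within replicates 5 to 8.

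FANCL (ENSG00000115392, chr2:58159243-58241372), the ligase of the core complex, had 20.6, 21.9, 21.8 and 22.4 CPM in A101D replicates 1 to 4 and 12.2, 11.8, 12.9 and 10.5 CPM in replicates 5 to 8. In MeWo its levels were 17.1, 15.7, 18.7 and 17.8 CPM and 17.3, 18.6, 16.2 and 17.5 CPM in these sets, between the A101D sets. MeWo was accordingly lower within replicates 1 to 4, at -0.32 ± 0.060 (SE, adjusted p = 7.33e-06), and higher within replicates 5 to 8, at 0.56 ± 0.066 (SE, adjusted p = 6.10e-10). Of the exon bases of FANCL, 18.7% are shared with VRK2 on the opposite strand, and the strand setting of the counting is not given in the sources used here.

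FANCA (ENSG00000187741, chr16:89737549-89816657), a scaffold subunit of the core complex, had 30.5, 28.6, 31.5 and 30.04 CPM in A101D replicates 1 to 4 and 8.498, 8.11, 9.63 and 7.90 CPM in replicates 5 to 8, a difference of 3.52-fold. All MeWo libraries lay above, at 50.03, 48.3, 51.3 and 53.5 CPM in replicates 1 to 4 and 49.1, 48.8, 49.8 and 47.4 CPM in replicates 5 to 8. Between the lines FANCA differed by 0.75 ± 0.045 (SE, adjusted p = 3.15e-18) in the first set and by 2.52 ± 0.063 (SE, adjusted p = 4.13e-31) in the second. ZNF276 shares 23.6% of the exon bases of FANCA on the opposite strand. FANCG, which binds FANCA, and FANCM, the translocase that brings the core complex to DNA, had the same order of levels. FANCG had 21.8 to 23.0 CPM and 6.44 to 8.01 CPM in the A101D sets and 29.6 to 32.5 CPM in MeWo. FANCM had 16.5 to 19.9 CPM, 5.90 to 6.44 CPM and 26.5 to 32.1 CPM. Both were higher in MeWo in both sets, by 2.09 ± 0.065 and 2.20 ± 0.078 within replicates 5 to 8.

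FANCF (ENSG00000183161, chr11:22622890-22625841), an adaptor of the core complex encoded by a gene with a single exon, ran against the rest. It had 11.2, 11.6, 10.9 and 9.79 CPM in A101D replicates 1 to 4 and 37.3, 36.9, 36.3 and 33.1 CPM in replicates 5 to 8, which was 3.29-fold higher with no overlap. In MeWo it had 26.9, 28.9, 27.2 and 25.8 CPM and 33.3, 32.1, 33.2 and 31.3 CPM, also higher in replicates 5 to 8. MeWo was higher within replicates 1 to 4, at 1.32 ± 0.064 (SE, adjusted p = 2.28e-21), and lower within replicates 5 to 8, at -0.14 ± 0.047 (SE, adjusted p = 0.00479). GAS2 shares 11.3% of its exon bases on the opposite strand.

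FANCC (ENSG00000158169, chr9:95099054-95426796), a core complex subunit that binds FANCF and FANCE, was the member that was lower in MeWo in both sets. It had 14.2, 16.6, 16.3 and 15.9 CPM in A101D replicates 1 to 4, 12.4, 12.6, 12.5 and 12.0 CPM in A101D replicates 5 to 8, 9.41, 8.71, 9.002 and 8.30 CPM in MeWo replicates 1 to 4 and 8.04, 8.09, 8.81 and 8.45 CPM in MeWo replicates 5 to 8. No MeWo library reached the lowest A101D library. Over all libraries the log2 fold change was -0.69 ± 0.080 (SE, adjusted p = 3.64e-07). FANCE had 11.8 to 13.0 CPM, 6.21 to 6.74 CPM and 15.1 to 16.5 CPM in the A101D sets and in MeWo, and MeWo was higher in both sets.

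The target of the ligase, the ID2 complex of FANCD2 and FANCI, was lower in A101D replicates 5 to 8 in both of its subunits by similar amounts. FANCD2 (ENSG00000144554, chr3:10026414-10101930) had 39.4, 40.6, 44.1 and 41.7 CPM in A101D replicates 1 to 4 and 18.1, 18.05, 17.6 and 17.6 CPM in replicates 5 to 8. FANCI (ENSG00000140525, chr15:89243949-89317261) had 99.8, 106, 109 and 103 CPM and 41.3, 41.5, 43.3 and 42.1 CPM. The differences in mean log2 CPM were -1.21 and -1.31, with no overlap of sets.

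Both subunits were higher in MeWo. FANCD2 had 58.1, 54.6, 54.8 and 56.6 CPM in MeWo replicates 1 to 4 and 54.2, 56.2, 52.7 and 57.0 CPM in replicates 5 to 8, where the sets overlapped. FANCI had 161, 158, 157 and 159 CPM and 152, 154, 149.5 and 153 CPM, with the second set lower by a small margin. The line difference of FANCD2 was 0.44 ± 0.041 (SE, adjusted p = 1.96e-12) within replicates 1 to 4 and 1.62 ± 0.048 (SE, adjusted p = 1.36e-28) within replicates 5 to 8. That of FANCI was 0.61 ± 0.032 (SE, adjusted p = 6.87e-20) and 1.85 ± 0.036 (SE, adjusted p = 8.20e-35).

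All 4 of the BRCA mediators, which act on resected DNA, were higher in MeWo in both sets, where 30.8% of all genes were. All 4 were also lower in A101D replicates 5 to 8 than in replicates 1 to 4, where 28.7% of all genes were. BRCA1 (ENSG00000012048, chr17:43044295-43170245) had 56.9, 58.8, 57.7 and 58.4 CPM in A101D replicates 1 to 4 and 32.8, 27.0, 29.5 and 25.1 CPM in replicates 5 to 8. BARD1 (ENSG00000138376, chr2:214725646-214809711), its partner in the BRCA1 ubiquitin ligase, had 26.4, 28.7, 30.6 and 27.0 CPM and 9.30, 9.89, 9.84 and 9.89 CPM. The heterodimer partners were thus 2.04-fold and 2.88-fold apart between the A101D sets. In MeWo BRCA1 had 104, 100.5, 102 and 100.0 CPM and 104, 109, 105 and 105 CPM, with overlapping sets. BARD1 had 40.6, 38.7, 38.9 and 41.1 CPM and 38.7, 38.5, 35.9 and 38.2 CPM there. The line difference of BRCA1 was 0.81 ± 0.043 (SE, adjusted p = 5.42e-20) in the first set and 1.90 ± 0.047 (SE, adjusted p = 4.45e-31) in the second, and that of BARD1 was 0.51 ± 0.047 (SE, adjusted p = 1.11e-12) and 1.96 ± 0.060 (SE, adjusted p = 5.85e-28).

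PALB2 (ENSG00000083093, chr16:23603160-23641310), which links BRCA1 to BRCA2, was among the 5 members with the smallest difference between the A101D sets. It had 23.2, 25.6, 25.9 and 24.5 CPM in replicates 1 to 4 and 20.3, 21.0, 20.3 and 20.5 CPM in replicates 5 to 8, at -0.27 in mean log2 CPM. MeWo had about the same level in both sets, 51.6, 52.3, 49.8 and 50.7 CPM and 51.0, 51.6, 47.7 and 47.8 CPM. Its line difference was 1.05 ± 0.045 (SE, adjusted p = 5.92e-23) and 1.27 ± 0.046 (SE, adjusted p = 1.76e-25), which makes PALB2 the mediator whose line difference varied least between the sets.

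BRCA2 (ENSG00000139618, chr13:32315474-32400266), a mediator that binds PALB2, had 35.5, 35.6, 36.6 and 35.9 CPM in A101D replicates 1 to 4 and 20.9, 17.8, 18.1 and 17.1 CPM in replicates 5 to 8. In MeWo it had 59.4, 58.6, 58.6 and 59.3 CPM and 59.7, 67.5, 62.9 and 69.8 CPM, and every library of the second set lay above every library of the first. BRCA2, RMI1 and EME1 were the 3 members below in A101D and above in MeWo, where 1.18% of all genes were. The line difference of BRCA2 was 0.72 ± 0.047 (SE, adjusted p = 5.56e-17) within replicates 1 to 4 and 1.82 ± 0.053 (SE, adjusted p = 8.29e-29) within replicates 5 to 8.

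**Figure D4:**
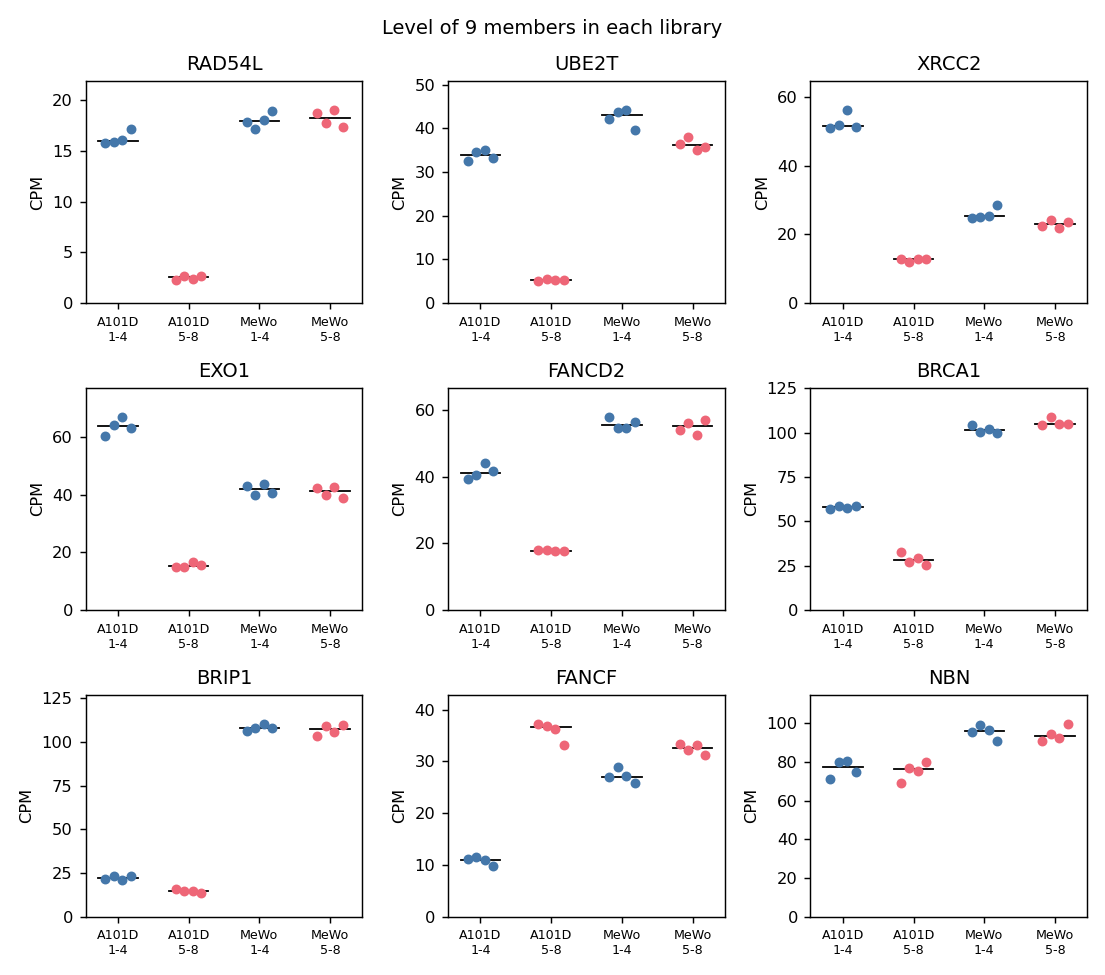
CPM of 9 members in each library, as points in order of replicate number within a set, with the median of the 4 libraries as a bar and each vertical axis starting at 0. RAD54L, UBE2T, XRCC2 and EXO1 are low in A101D replicates 5 to 8, FANCF is high there, and NBN is level between the sets of each line.

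The 7 strand invasion genes spread from -2.67 to 1.26 between the A101D sets, with 6 below in replicates 5 to 8 and 1 above (28.7% and 31.0% of all genes). RAD54L (ENSG00000085999, chr1:46247688-46278473), a motor protein that helps the strand invade its template, had the largest difference between the A101D sets. Its level was 15.7, 15.9, 16.1 and 17.1 CPM in replicates 1 to 4 and 2.26, 2.68, 2.401 and 2.69 CPM in replicates 5 to 8, 6.35-fold apart. In MeWo it was 17.8, 17.1, 18.1 and 18.9 CPM and 18.7, 17.7, 19.0 and 17.3 CPM, level between the sets. Between the lines the difference was small within replicates 1 to 4, at 0.15 ± 0.056 (SE, adjusted p = 0.0142), and was 2.85 ± 0.098 (SE, adjusted p = 2.07e-26) within replicates 5 to 8. LRRC41 shares 25.1% of the exon bases of RAD54L on the opposite strand.

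RAD51AP1 (ENSG00000111247, chr12:4538798-4560048), which stimulates strand pairing, had 22.7, 25.6, 26.9 and 26.1 CPM in A101D replicates 1 to 4 and 4.11, 4.85, 4.86 and 4.93 CPM in replicates 5 to 8. MeWo lay between them, at 20.9, 21.2, 21.7 and 19.9 CPM and 20.9, 20.3, 18.5 and 20.1 CPM. RAD51AP1 thus had a line difference of -0.27 ± 0.055 (SE, adjusted p = 3.72e-05) in the first set and 2.08 ± 0.085 (SE, adjusted p = 8.37e-24) in the second. Over all libraries it was 0.93 ± 0.39 (SE, adjusted p = 0.0387), and this call was lost without MeWo replicate 2 (adjusted p = 0.0528, over all settings 0.0357 to 0.126).

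XRCC2 (ENSG00000196584, chr7:152644779-152676165), which pairs with RAD51D, was the member with the highest A101D level relative to MeWo in the first set. It had 50.9, 51.6, 56.1 and 51.2 CPM in A101D replicates 1 to 4 and 12.9, 11.9, 12.8 and 12.7 CPM in replicates 5 to 8. MeWo had 24.9, 25.1, 25.5 and 28.5 CPM and 22.4, 24.2, 21.7 and 23.7 CPM. This gave line differences of -1.01 ± 0.048 (SE, adjusted p = 1.30e-21) and 0.87 ± 0.061 (SE, adjusted p = 3.11e-16) in the sets, and -0.057 ± 0.36 (SE, adjusted p = 0.89) over all libraries, where the opposite signs meet. RAD51D (ENSG00000185379, chr17:35092208-35121522) itself had 18.1, 16.8, 16.1 and 16.2 CPM and 12.3, 11.1, 12.1 and 11.2 CPM in the A101D sets, and 36.4, 38.0, 40.6 and 39.9 CPM and 39.9, 39.9, 37.6 and 36.4 CPM in MeWo. It was higher in MeWo in both sets, at 1.20 ± 0.054 (SE, adjusted p = 2.87e-22) and 1.72 ± 0.059 (SE, adjusted p = 1.78e-26).

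RAD51B (ENSG00000182185, chr14:67819779-68730218) was one of the 2 members over 2-fold higher in A101D replicates 5 to 8. It had 4.17, 3.90, 3.88 and 3.62 CPM in replicates 1 to 4 and 11.1, 9.57, 9.19 and 8.01 CPM in replicates 5 to 8. MeWo had 11.2, 12.7, 11.9 and 12.2 CPM and 13.5, 15.5, 12.8 and 14.03 CPM, and the second set lay above there too. RAD51B was higher in MeWo in both sets, at 1.62 ± 0.10 (SE, adjusted p = 1.98e-17) and 0.57 ± 0.076 (SE, adjusted p = 9.03e-09), with the smaller difference in the second.

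RAD51C (ENSG00000108384, chr17:58692573-58735611), which forms a complex with XRCC3, had close levels in all sets. It had 25.9, 25.9, 26.4 and 26.0 CPM and 23.3, 23.5, 23.0 and 22.1 CPM in the A101D sets, and 28.5, 28.2, 28.7 and 27.0 CPM and 26.0, 28.3, 27.4 and 26.1 CPM in MeWo. The line difference within replicates 1 to 4 was 0.11 ± 0.046 (SE, adjusted p = 0.0311), and that call was lost without A101D replicate 2 (adjusted p = 0.0656), without MeWo replicate 1 (adjusted p = 0.0579) or without MeWo replicate 3 (adjusted p = 0.063), over all settings 0.0064 to 0.0733. Within replicates 5 to 8 it was 0.23 ± 0.046 (SE, adjusted p = 2.21e-05). XRCC3, the partner of RAD51C, had 26.1 to 29.3 CPM and 12.9 to 14.1 CPM in the A101D sets and 21.6 to 27.3 CPM in MeWo. KLC1 shares 76.7% of the exon bases of XRCC3 on the opposite strand, so reads of the 2 genes may not have been told apart.

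In end resection the members parted. EXO1 (ENSG00000174371, chr1:241847967-241895148), the exonuclease of long-range resection, had 60.5, 64.3, 67.1 and 63.2 CPM in A101D replicates 1 to 4 and 14.99, 15.1, 16.5 and 15.7 CPM in replicates 5 to 8, 4.09-fold apart. In MeWo it had 43.0, 39.9, 43.6 and 40.8 CPM and 42.4, 39.9, 42.5 and 39.05 CPM. It was lower in MeWo within replicates 1 to 4, at -0.61 ± 0.042 (SE, adjusted p = 3.84e-16), and higher within replicates 5 to 8, at 1.40 ± 0.053 (SE, adjusted p = 8.38e-25). Over all libraries it did not pass, at 0.41 ± 0.34 (SE, adjusted p = 0.285).

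The MRE11-RAD50-NBN complex, which senses the break and starts resection, had no shared pattern among its subunits. The level of RAD50 is uncertain, for the reason given with its values below. NBN had the smallest difference between the A101D sets of all members, with 71.3, 80.2, 80.8 and 74.96 CPM in replicates 1 to 4 and 69.1, 77.1, 75.4 and 79.8 CPM in replicates 5 to 8. MeWo had 95.6, 99.0, 96.8 and 90.7 CPM and 91.1, 94.6, 92.2 and 99.9 CPM. Its line difference was nearly the same in both sets, 0.32 ± 0.043 (SE, adjusted p = 2.06e-08) and 0.33 ± 0.043 (SE, adjusted p = 7.95e-09). MRE11, the nuclease, had 27.3 to 30.5 CPM and 13.6 to 16.01 CPM in the A101D sets, with 23.9 to 28.1 CPM in MeWo. It did not pass between the lines within replicates 1 to 4, at -0.10 ± 0.055, except without A101D replicate 3 (adjusted p = 0.0442, over all settings 0.0442 to 0.481), and was higher in MeWo within replicates 5 to 8, at 0.82 ± 0.061.

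RAD50, the third subunit, was slightly higher in A101D replicates 5 to 8, at 7.47 to 8.498 CPM against 5.86 to 7.33 CPM, with 6.12 to 7.32 CPM in MeWo. It was lower in MeWo within replicates 5 to 8, at -0.26 ± 0.081 (SE, adjusted p = 0.00305). A second gene model, AC116366.3, shares 79.7% of the exon bases of RAD50 on the same strand in GENCODE 29. The median count of AC116366.3 was 0, so reads in the shared bases were mostly not counted for it. Whether they were counted for RAD50 or left out was not tested, so the level of RAD50 here is uncertain and may be too low. RBBP8, which activates the nuclease of MRE11, had 40.1 to 44.6 CPM and 28.5 to 32.9 CPM in the A101D sets and 54.7 to 58.6 CPM in MeWo, and was higher in MeWo in both sets.

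All 4 helicase and dissolution genes were lower in A101D replicates 5 to 8, as were 27 of the 33 members and 28.7% of all genes. BRIP1 (ENSG00000136492, chr17:61681266-61863521), a helicase that binds BRCA1, had the largest line difference of all members within replicates 1 to 4 and over all libraries. Its level was 21.4, 23.5, 21.2 and 23.5 CPM in A101D replicates 1 to 4, 15.9, 14.9, 14.8 and 13.4 CPM in A101D replicates 5 to 8, 106, 108, 111 and 108 CPM in MeWo replicates 1 to 4 and 104, 109, 106 and 109.8 CPM in MeWo replicates 5 to 8. Each library of MeWo was thus more than 4-fold above every A101D library. The log2 fold change of BRIP1 was 2.27 ± 0.046 (SE, adjusted p = 3.94e-34) in the first set and 2.87 ± 0.050 (SE, adjusted p = 3.21e-36) in the second.

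BLM (ENSG00000197299, chr15:90717327-90816165), the helicase that dissolves double Holliday junctions, had 22.3, 24.0, 24.3 and 24.8 CPM in A101D replicates 1 to 4 and 7.08, 6.81, 6.73 and 6.45 CPM in replicates 5 to 8. In MeWo it had 37.9, 36.6, 38.8 and 38.4 CPM and 39.1, 42.1, 36.8 and 39.5 CPM, with overlapping sets. Its line difference was smaller in the first set than in the second, at 0.67 ± 0.048 (SE, adjusted p = 7.52e-16) and 2.54 ± 0.068 (SE, adjusted p = 4.66e-30).

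RMI2 (ENSG00000175643, chr16:11249619-11381662), a small subunit of the complex that BLM forms with TOP3A and RMI1, had 6.64, 6.76, 7.55 and 7.21 CPM and 2.53, 2.54, 2.87 and 2.35 CPM in the A101D sets. In MeWo it had 22.8, 20.4, 19.9 and 18.8 CPM and 23.0, 21.2, 20.4 and 20.7 CPM. The line difference was 1.54 ± 0.076 (SE, adjusted p = 4.42e-21) and 3.04 ± 0.10 (SE, adjusted p = 2.27e-26), the largest of all members within replicates 5 to 8. RMI1, the other small subunit, had 8.15 to 9.20 CPM and 2.90 to 3.46 CPM in A101D, and 6.85 to 7.37 CPM and 7.43 to 8.40 CPM in MeWo. It was lower in MeWo within replicates 1 to 4, at -0.27 ± 0.078, and higher within replicates 5 to 8, at 1.30 ± 0.096, so the subunits RMI1 and RMI2 differed between the lines in opposite directions in the first set.

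The 3 genes of the crosslink nucleases showed 3 patterns in A101D. MUS81 (ENSG00000172732, chr11:65857126-65867653), the catalytic subunit of a structure-selective endonuclease, had overlapping sets in both lines, with 65.8, 59.6, 67.5 and 64.6 CPM and 68.1, 69.8, 66.8 and 65.2 CPM in A101D, and 73.1, 70.8, 72.6 and 77.5 CPM and 75.9, 68.3, 79.4 and 77.5 CPM in MeWo. Its line difference was small in both, at 0.19 ± 0.044 (SE, adjusted p = 1.46e-04) and 0.15 ± 0.043 (SE, adjusted p = 0.00124). EME1, the partner of MUS81 in that nuclease, had 9.66 to 11.53 CPM and 5.53 to 6.47 CPM in the A101D sets and 16.03 to 18.7 CPM and 20.9 to 23.2 CPM in the MeWo sets. The line difference of EME1 was 0.76 ± 0.068 and 1.92 ± 0.077.

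SLX4, the scaffold that holds these nucleases, was higher in A101D replicates 5 to 8. It had 19.7 to 20.4 CPM in replicates 1 to 4 and 29.8 to 31.1 CPM in replicates 5 to 8, with 24.3 to 26.8 CPM and 26.1 to 29.4 CPM in MeWo. SLX4 differed between the lines by 0.32 ± 0.052 (SE, adjusted p = 7.53e-07) within replicates 1 to 4. Within replicates 5 to 8 it was -0.11 ± 0.046 (SE, adjusted p = 0.0306), and this call was also lost without A101D replicate 6 (adjusted p = 0.0736), without MeWo replicate 6 (adjusted p = 0.0646), without MeWo replicate 7 (adjusted p = 0.0508) or without MeWo replicate 8 (adjusted p = 0.348), over all settings 0.00489 to 0.348. CFL1 and LRRC59 share 13.9% and 16.4% of the exon bases of MUS81 and EME1 on the opposite strand.

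Levels were compared between genes only per kilobase of exon. In A101D replicates 1 to 4, UBE2T had the highest median level of all members, at 20.5 CPM per kilobase, ahead of EXO1 at 15.4 and FANCI at 13.5. RAD51B was the lowest, at 0.520. In A101D replicates 5 to 8, FANCF at 12.4, NBN at 12.4 and MUS81 at 12.3 CPM per kilobase were at the top and close together. UBE2T was then at rank 11 and EXO1 at rank 9, while FANCF had been at rank 18 in replicates 1 to 4. The median over the members was 4.28 CPM per kilobase in A101D replicates 1 to 4, 1.95 in A101D replicates 5 to 8, 5.72 in MeWo replicates 1 to 4 and 5.89 in MeWo replicates 5 to 8. UBE2T, FANCI and NBN held ranks 1 to 3 in both MeWo sets, and FANCC was the lowest there.

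In a list of 49 further genes of these pathways and of their checkpoint, most were also higher in MeWo. Over all libraries 31 were higher and 13 were lower (38.5% and 40.5% of all genes), with a median of 0.38. Within replicates 1 to 4 the counts were 30 and 15 (37.0% and 42.4% of all genes), and within replicates 5 to 8 they were 32 and 14 (39.7% and 44.5%). FAAP100, a core complex subunit, had the largest difference over all libraries, with 48.4 to 52.7 and 44.2 to 46.1 CPM in the A101D sets and 176 to 193 and 180.2 to 199.8 CPM in the MeWo sets and a line difference of 1.96 ± 0.043 (SE, adjusted p = 4.15e-17). DNA2, a resection nuclease, and RPA1, the large subunit of the single-strand binding protein, followed at 1.69 ± 0.24 and 1.58 ± 0.13. FANCB, a core complex subunit, was lower in MeWo within replicates 1 to 4, at -1.22 ± 0.051 (SE, adjusted p = 1.48e-23), with 21.1 to 24.5 CPM against 49.6 to 56.4 CPM. HROB, which recruits the MCM8-MCM9 helicase, stood at 2.20 ± 0.093 within replicates 5 to 8.

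Between the A101D sets, 31 of the 49 genes were below in replicates 5 to 8 and 13 were above (28.7% and 31.0% of all genes), with a median of -0.35. HROB, the checkpoint kinase CHEK2 and MCM8 had the largest differences, at -1.71, -1.59 and -1.54 in mean log2 CPM. CHEK2 had 30.5, 33.2, 31.4 and 31.5 CPM in replicates 1 to 4 and 10.04, 10.3, 10.9 and 10.6 CPM in replicates 5 to 8. In MeWo 9 were below and 6 above (8.75% and 7.97% of all genes), and the largest difference was that of SWSAP1, a recombination factor, at 0.46, ahead of RAD52 at 0.38 and RECQL5 at 0.27.

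The 19 genes of end joining, the other main route of break repair, gave 11 higher and 0 lower in MeWo over all libraries, 14 and 2 within replicates 1 to 4, and 13 and 5 within replicates 5 to 8, beside the same shares of all genes as for the list above. With the set of replicates as a term in limma, 2 of them were lower over all libraries. PARP1, the sensor of strand breaks, had 242 to 253 and 149 to 162 CPM in the A101D sets and 447 to 504 and 452 to 472 CPM in the MeWo sets and a line difference of 1.27 ± 0.12 (SE, adjusted p = 4.28e-08). XRCC4, a scaffold of the ligation step, and DCLRE1C, the nuclease Artemis, had the largest and the next largest difference within replicates 1 to 4, at 1.26 ± 0.074 and 1.09 ± 0.047. NHEJ1, an XRCC4-like factor, stood at 1.21 ± 0.23 within replicates 5 to 8.

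Between the A101D sets 9 of the end joining genes were below in replicates 5 to 8 and 6 above, with a median of -0.25, where 28.7% and 31.0% of all genes were. POLQ, the polymerase of microhomology-mediated end joining, had 41.1, 43.5, 42.7 and 44.0 CPM in A101D replicates 1 to 4 and 14.2, 11.8, 13.8 and 12.5 CPM in replicates 5 to 8, and it had the largest line difference of the list within replicates 5 to 8, at 2.22 ± 0.060 (SE, adjusted p = 6.33e-30). SHLD1, a shieldin subunit that limits resection, was higher in replicates 5 to 8, with 3.72, 3.65, 3.84 and 3.32 CPM and 9.86, 10.7, 8.96 and 8.56 CPM in the A101D sets. XRCC1, a scaffold of single-strand break repair, was at -0.84 in mean log2 CPM.

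The cell cycle list was higher in MeWo for 22 of 24 genes over all libraries, for 22 with 2 lower within replicates 1 to 4, and for all 24 within replicates 5 to 8, with medians of 1.73, 0.69 and 2.66, where 38.5%, 37.0% and 39.7% of all genes were higher. E2F2 and AURKB, a mitotic kinase, had the largest differences within replicates 5 to 8, at 6.47 ± 0.20 and 4.17 ± 0.070. CDC45, a subunit of the replicative helicase, was lower in MeWo within replicates 1 to 4, at -1.39 ± 0.044, with 38.8 to 40.6 CPM against 98.7 to 109 CPM. In the MeWo sets, 16 of the 24 genes were below in replicates 5 to 8 and 1 was above, with a median of -0.14. Of all genes, 8.75% were below and 7.97% above.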

How the data were processed

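The authors deposited raw exon counts, not normalized, in a table for each line, per the file headers. A cell of these tables holds an identifier joined to its count, and the parts were split before use. Trimmomatic 0.39-1, STAR 2.7.1a, featureCounts 2.0.0 and GRCh38 are named in the submitters' processing notes. The strand setting is not given in the sources used here, nor is the annotation release. Gene positions and exon overlaps are those of GENCODE 29 (GRCh38), and promoter windows those of RefSeq.

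Library sizes were scaled by the trimmed mean of M-values (trims of 30% and 5%). Genes with 0.298 CPM (10 counts at the median depth) in 8 libraries (19247 genes), or in 4 libraries for the fit of 4 means (21569 genes), were tested with limma 3.58.1 in R 4.3.3 (voom weights, robust empirical Bayes), adjusted after Benjamini and Hochberg over all of them, threshold 0.05. Line differences within a set came from 1 fit of 16 libraries. Log2 CPM for the comparison of sets used a prior count of 2. The fit was tested on simulated counts in which the A101D sets did not differ. That test therefore says nothing about a spread like that between the real A101D sets.

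The members and lists were chosen with earlier results of these data known. Values per library are given for the ligase arm and its target (UBE2T, FANCL, FANCA, FANCD2 and FANCI), the BRCA mediators, the 5 largest and 5 smallest differences between the A101D sets, and the 5 largest line differences per set. The other members are given by range. From each other list the 3 largest differences per comparison were eligible. Alternatives covered scaling, filters, the threshold, limma-trend, the replicate number and the set as a term. For line differences within a set and for the comparison of sets, each library concerned was left out in turn. For the line difference over all libraries, only MeWo replicate 2 was left out.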

Additional observations from a re-analysis of the deposited data

Results flagged for a closer look

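FANCG, a subunit of the Fanconi core complex, stood at 32.5 CPM in MeWo replicate 3, apart from the other 7 MeWo libraries at 29.6 to 30.8 CPM. The gap was 0.571 of the whole range, above Dixon's critical value for 8 libraries. Of 66 groups of 8 libraries checked this was the 1 that stood out. The number given by chance, about 3.3, assumes 8 libraries around 1 common level. In A101D the sets of replicates did not overlap for most members, and a single library can then hardly stand apart by this measure. The number of flags therefore says little about the A101D groups.

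For 3 members every library of replicates 5 to 8 lay below replicates 1 to 4 in A101D and above them in MeWo. The differences in mean log2 CPM were -0.959 in A101D and 0.138 in MeWo for BRCA2, -1.40 and 0.147 for RMI1, and -0.825 and 0.333 for EME1. The difference between the lines in these values was not tested.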

How the results depend on the processing

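Across 28 other settings, 1452 repeats of single-member line tests kept their direction, 1424 of them also their side of the threshold. In 20 a call was lost (RAD51AP1 over all libraries, RAD51C and RAD54L within replicates 1 to 4, FANCF and SLX4 within replicates 5 to 8) and in 8 one was gained (RMI1, MRE11 and FANCF). The call of RAD54L was lost only with the threshold at 0.01. Its adjusted p in limma stayed at or below 0.0472 in all settings. Other scalings moved the median of all genes by at most 0.080 (log2). End joining genes lower in MeWo over all libraries numbered 0, but 1 with total counts only, 2 with the replicate block and 2 with the set of replicates as a term. The median difference between the A101D sets was -0.91 with upper-quartile factors and -0.87 with total counts only, and that between the MeWo sets was -0.035 with median-of-ratios factors and, in the other direction, 0.020 with total counts only, where 1 member, not 4, lay below. Leaving out each library in turn gave -1.01 to -0.94 for A101D, -0.036 to -0.0043 for MeWo, and 2 to 4 members lower in MeWo within replicates 5 to 8. The cause was not tested.

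The replicate numbers showed little pairing of the libraries. As deviations from the mean of the line, same-numbered libraries correlated at 0.0528 to 0.175, and 2 of 8 correlated best with their own number. These values also hold the difference between the sets. As deviations from the mean of line and set, same-numbered libraries correlated at -0.0289 to 0.0931. With the replicate block 15327 genes were called over all libraries, against 15207, and RAD51AP1 did not pass (log2 fold change 0.66, adjusted p = 0.126, over all settings 0.0357 to 0.126). The count tests planned as alternatives were not run, because the deposited columns, with identifier and count in 1 cell, did not pass as counts. Depth limits the precision of low counts, and the smallest count of any member in a library was 73, for RAD54L.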
